A study of Homo sapiens with 6 samples.

Results

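The 9 genes described here encode enzymes that make or consume glutamine, glutamate, asparagine and proline: GLS2 and GLUL for glutamine, GLUD1, GOT1, GOT2 and GPT2 for glutamate, ASNS for asparagine, and ALDH18A1 and PYCR1 for proline. They were taken by name from a count table of 25071 genes, in which all 9 are listed, and 8 of the 9 had enough counts to be tested. RNA was sequenced from PLC/PRF/5, a human hepatoma cell line that carries integrated hepatitis B virus DNA. Cells for 3 libraries received a control vector, and cells for the other 3 a plasmid that overexpresses ARD1 (NAA10, the subunit of NatA that acetylates protein N-termini), with harvest 48 hours after transfection. The labels give neither the promoter of the plasmid nor the share of cells transfected, and whether the libraries are separate cultures is not said, so the p-values rest on a spread between libraries that may be technical.

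Glutamine carries nitrogen between tissues and feeds it, as its amide, into nucleotides, hexosamines and asparagine. Glutaminase turns it into glutamate, glutamine synthetase makes it again, and glutamate passes on its amino group by transamination or loses it to glutamate dehydrogenase. The same glutamate is reduced to proline in mitochondria. In liver these steps are split by position, with the liver-type glutaminase in hepatocytes near the portal vein and glutamine synthetase in those around the central vein, where Wnt/β-catenin signalling keeps it on. Transcription of ASNS is known to rise through ATF4 when amino acids are short, by way of a C/EBP-ATF response element in its promoter.

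The libraries held 21857327 to 25011357 counts, so that 3 counts corresponded to 0.112 to 0.143 CPM (counts relative to a library size adjusted by TMM). NAA10 rose from a range of 32.2 to 36.2 CPM in the control libraries to 294 to 400.2 CPM in the ARD1 libraries, in accord with the labels. No libraries were so alike as to be copies, and control replicate 1 stood apart: a chi-square of its counts over genes, divided by the degrees of freedom, was 16.8 and 19.6 beside the other controls, whereas the remaining pairs within a group gave 2.48 to 4.32. Without control replicate 1, the same number of the enzymes, 7 of 8, passed the test described next. Of 13 hepatocyte and hepatoma markers, all were listed, and their summed level was 3509 to 4285 CPM in the control and 2036 to 2109 CPM in the ARD1 libraries, most of it from the keratins KRT8 and KRT18. Of the 13, however, 3 stayed under 1 CPM in every control library and 4 in every ARD1 library. Of the 11 tested, 7 fell and 3 rose (SERPINA1, APOB and HNF4A). TTR, with 2, 5 and 2 counts in the control libraries and 0 counts in all 3 ARD1 libraries, was too low to be tested. Markers of other cell types were low against the hepatocyte sum, which the keratins carry, but not against each hepatocyte marker. In control libraries LUM and COL3A1 had means of 59.8 and 28.2 CPM, and CDH5 and PECAM1 of 33.1 and 32.7 CPM. The hepatocyte markers APOH, APOB and AFP had means of 32.4, 6.17 and 3.21 CPM there. KRT8, KRT18, ALB, FGB and TF stood above LUM. The 7 fibroblast markers summed to 78.1 to 98.8 CPM in control and 18.2 to 20.7 CPM in ARD1 libraries, the 6 endothelial markers to 70.0 to 82.7 and 90.2 to 102.9 CPM, and the 6 immune markers to 14.5 to 15.6 and 5.52 to 6.26 CPM, while COL1A2, CLDN5, CD3E and LYZ stayed under 1 CPM in every library. Of the 5 fibroblast markers tested, LUM and COL3A1 fell (-2.01 and -4.80 on the log2 scale), COL1A1 rose (1.55) and 2 did not pass. The endothelial sum also joins genes that moved apart: CDH5 went from 33.1 ± 2.44 to 0.0677 ± 0.0836 CPM, KDR from 8.53 ± 0.781 to 35.3 ± 4.54 CPM and PECAM1 from 32.7 ± 4.13 to 57.7 ± 3.22 CPM. VWF rose from 2 counts over the control libraries to 105 over the ARD1 libraries (5.29 on the log2 scale). Their part in the results below was not tested, and in bulk RNA fewer cells of a type and less RNA per cell cannot be told apart.

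Of the 8 enzymes tested, 3 rose (ASNS, GOT1 and GPT2) and 4 fell (GLUL, GLUD1, GOT2 and ALDH18A1) in the ARD1 libraries, and PYCR1 did not pass the test. Over all 15816 genes tested, 64.7% passed, 32.5% as higher and 32.2% as lower, so the 7 of 8 (87.5%) stand beside a background in which most genes passed, and nothing particular to these enzymes is read from the count. With library totals and no scaling factors the split was 3 higher and 1 lower, since GLUD1, GOT2 and ALDH18A1 no longer passed and changed sign (0.03, 0.04 and 0.06 on the log2 scale). That choice moved the median log2 fold change of all genes from 0.03 to 0.30, and the share of higher genes among those called from 50.2% to 68.6%. Differences of at least 2-fold (an absolute log2 fold change of 1) were found for 2 of the 8 enzymes, ASNS and GOT1, where 21.5% of all tested genes passed with a change of that size. In rank of log2 fold change among tested genes, ASNS stood at the 97.6th percentile, GOT1 at the 95.5th and GLUL at the 15.8th, and the other 5 lay between the 35.8th and the 65.7th. The 7 enzymes past the threshold had no overlap between the CPM of the 2 groups, as had 69.6% of all tested genes.

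**Figure D1:**
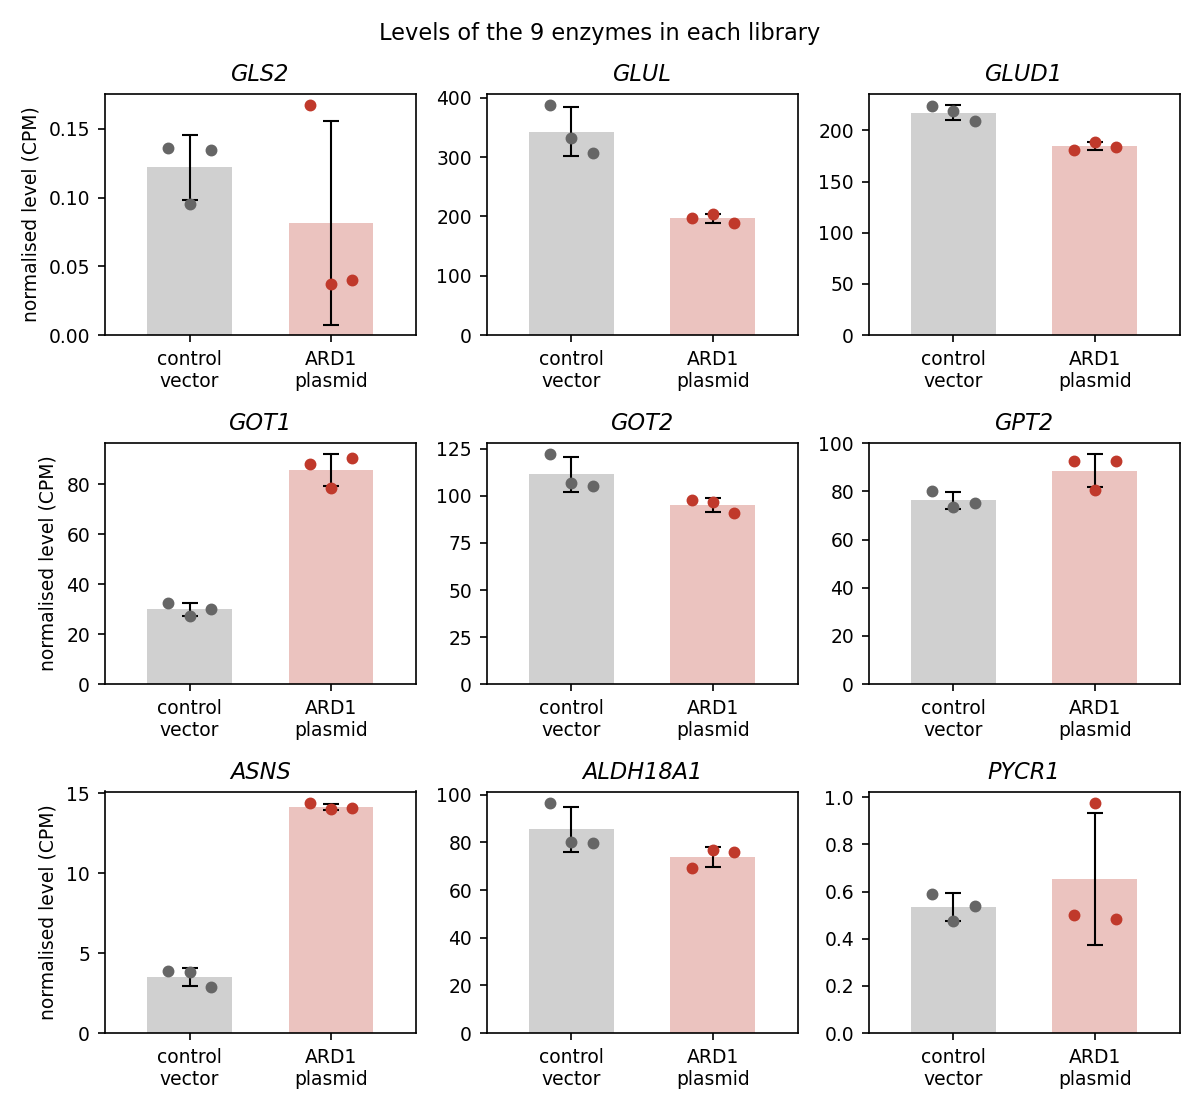
Level of each of the 9 enzymes (y axis, CPM, a separate scale in each panel) in the control vector and ARD1 plasmid libraries; points are single libraries, bars the mean and error bars the SD (n = 3). ASNS and GOT1 stand clearly higher and GLUL lower in all 3 ARD1 libraries, GLS2 sits at a few counts in every library, and PYCR1 has 1 high ARD1 library.

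The upstream sequences of ASNS and GOT1, the enzymes with the largest differences among the 8, are shown because both hold the letters of the C/EBP-ATF response element. The 250 bases before each RefSeq start (GRCh38.p14) are written 5′ to 3′ along the gene, with the match in capitals. ASNS lies at chr7:97872409-97872658 on the minus strand, and GOT1 at chr10:99430625-99430874 on the minus strand. In GENCODE 29 both genes begin further upstream, at 97872542 and 99431569, so part of the ASNS stretch and the whole GOT1 stretch fall within the annotated gene.
ASNS: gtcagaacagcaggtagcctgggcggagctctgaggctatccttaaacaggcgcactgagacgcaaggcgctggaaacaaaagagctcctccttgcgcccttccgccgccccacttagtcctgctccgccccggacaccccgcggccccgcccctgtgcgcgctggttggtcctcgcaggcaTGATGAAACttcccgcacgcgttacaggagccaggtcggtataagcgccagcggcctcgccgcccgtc
GOT1: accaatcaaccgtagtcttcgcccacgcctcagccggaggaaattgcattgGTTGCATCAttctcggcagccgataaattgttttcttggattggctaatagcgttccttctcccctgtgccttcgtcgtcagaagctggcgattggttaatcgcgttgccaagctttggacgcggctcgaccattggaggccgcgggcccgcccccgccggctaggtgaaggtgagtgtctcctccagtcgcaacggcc
The letters searched were TGATGNAAN on both strands, where N is any base. In ASNS the match reads along the gene, 68 to 60 bases before the start (chromosome 7, 97872468 to 97872476). In GOT1 it lies on the other strand, 199 to 191 bases before the start (chromosome 10, 99430815 to 99430823). Of 9 RefSeq windows of 300 bases (250 before to 50 after a start) for 7 of the enzymes, 2 held a match and 7 did not, among them a downstream start of ASNS and both starts of GLUL. Over all 35116 such windows, 3.61% held one. The element of ASNS was known beforehand, so its match was fixed in advance, and no enrichment is read from the 2 windows. Of other motifs searched, the E-box CACGTG was found in the window of ALDH18A1 alone among these 7 enzymes and in 7.26% of all windows, and the GC box GGGCGG (either strand) in 8 of the 9 windows and in 45.0% of all windows. A match describes letters in the sequence and does not show that a factor binds there. GPT2 and PYCR1 have no window in the table.

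GLS2 (ENSG00000135423; chromosome 12, 56470944 to 56488414, minus strand, GRCh38 as all coordinates here), the liver-type glutaminase, was at the limit of detection in both groups. It had 3, 2 and 3 counts in control replicates 1 to 3 and 4, 1 and 1 counts in ARD1 replicates 1 to 3, or 0.136, 0.0950 and 0.135 CPM against 0.167, 0.0375 and 0.0403 CPM. The groups overlap, the gene did not enter the test, and no fold is given at this depth. Exons of SPRYD4 lie opposite 77.1% of GLS2 exon bases, and since the strand setting of the counting is not known, even these few counts may belong to the partner.

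GLUL (ENSG00000135821; chromosome 1, 182381704 to 182392206, minus strand), glutamine synthetase, which joins ammonia to glutamate, fell in the ARD1 libraries. Its level was 388, 332 and 307 CPM in control replicates 1 to 3 and 198, 204 and 189 CPM in ARD1 replicates 1 to 3. The lowest control lies well above the highest ARD1 library, and the spread is wider among controls, with control replicate 1 highest. The means were 342 ± 41.2 and 197 ± 7.27 CPM (SD, n = 3), a log2 fold change of -0.80 (SE 0.0849, 95% interval -0.98 to -0.62, adjusted p = 8.29e-07), or 1.74-fold lower. GLUL passed in each of 17 refits with other settings, between -0.96 with GC and length trends removed and -0.53 with library totals, and is short of a minimum log2 change of 1. No annotated exon of another gene overlaps GLUL, and the GLUL pseudogenes searched by name are not listed.

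Since GLUL and GLS2 mark opposite ends of the liver lobule, genes known for each zone were read beside them. Of 13 pericentral genes (GLUL and OAT among them), 11 were tested, 10 fell where 32.2% of all tested genes did, none rose, and CYP2E1 did not pass (-0.77, adjusted p = 0.0697, 0.363 to 0.943 CPM over the 6 libraries). CYP1A2 was not listed and RHBG had too few counts to be tested, so the pericentral zone is covered only in part. The list's median log2 fold change was -0.87, where the median of all genes tested was 0.03. With library totals 9 fell and none rose. AXIN2, a feedback inhibitor of Wnt signalling, fell from 50.1 ± 2.88 to 27.4 ± 0.985 CPM (-0.87, SE 0.0828), and the Wnt-linked LGR5, NOTUM and NKD1 fell more (-5.01, -4.70 and -2.47). ZNRF3, RNF43 and TBX3 of the same list fell less (-0.21, -0.67 and -0.53). In ARD1 libraries LGR5 had 5 to 10 and NOTUM 4 to 12 counts. CTNNB1, which encodes β-catenin, did not pass at 322 ± 14.7 and 340.6 ± 13.4 CPM (0.08, adjusted p = 0.326), and its sign turned with GC and length trends removed (-0.07), while with library totals it passed as higher (0.34). Of 12 periportal genes (GLS2 among them), 10 were listed and 7 tested, with 4 higher, 3 lower and a median of 0.50. All 7 passed (5 to 7 with 1 library left out), where 64.7% of all tested genes did. GLS2, CPS1 and HSD17B13 had too few counts to be tested, so the list covers this zone only in part. Of the 4 higher genes, HAL was at 1.94 and 2.87 CPM and SDS at 1.30 and 2.27 CPM in control and ARD1 libraries. The 3 lower ones included ALB at -3.12 and ARG1 at -3.82, and SLC7A2, a carrier of arginine and lysine, rose from 50.4 ± 2.71 to 99.7 ± 4.02 CPM (0.98, SE 0.0754). The summed hepatocyte markers, carried mostly by KRT8 and KRT18, were lower in the ARD1 libraries, with 7 of the 11 tested lower and 3 higher, and their part in the pericentral count was not tested.

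GLUD1 (ENSG00000148672; chromosome 10, 87050486 to 87094866, minus strand), the mitochondrial glutamate dehydrogenase that turns glutamate into α-ketoglutarate and ammonia, was modestly lower. It stood at 224, 219 and 209 CPM in control and 181, 189 and 183 CPM in ARD1 libraries, with the groups apart and each tightly spread. The means were 217 ± 7.44 and 184 ± 3.96 CPM (SD, n = 3; log2 fold change -0.24, SE 0.0673, 95% interval -0.38 to -0.09, adjusted p = 0.00617), and with library totals the sign turned (0.03, adjusted p = 0.664, range over its alternatives 1.54e-05 to 0.664). Exons of SHLD2 lie opposite 13.2% of GLUD1 exon bases, and reads may also be split with GLUD1P3, a pseudogene at 0.976 and 1.71 CPM. GLUD2, its X-linked copy, was near 1 CPM in both groups and did not pass (-0.19, and 0.08 with library totals).

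GOT1 and GOT2 are the cytosolic and mitochondrial aspartate aminotransferases, which exchange amino groups between glutamate and aspartate and run the malate-aspartate shuttle together, and they moved apart. GOT1 (ENSG00000120053; chromosome 10, 99396870 to 99431569, minus strand) was at 32.6, 27.2 and 30.0 CPM in control and 88.2, 78.5 and 90.5 CPM in ARD1 libraries. The lowest ARD1 library was more than double the highest control. The means were 29.9 ± 2.69 and 85.7 ± 6.36 CPM (SD, n = 3), 2.86-fold higher (log2 fold change 1.52, SE 0.0889, 95% interval 1.33 to 1.71, adjusted p = 1.03e-09), and GOT1 passed in each of 17 refits, between 1.43 and 1.78. GOT2 (ENSG00000125166; chromosome 16, 58707131 to 58734357, minus strand) was at 122, 107 and 105 CPM in control and 97.7, 96.5 and 91.0 CPM in ARD1 libraries. Its groups are apart, but control replicates 2 and 3 lie close to the ARD1 libraries. The means were 112 ± 9.29 and 95.1 ± 3.56 CPM (SD, n = 3; log2 fold change -0.23, SE 0.0771, 95% interval -0.40 to -0.07, adjusted p = 0.0160), and the call was lost without ARD1 replicate 3 (-0.20, adjusted p = 0.0965) and turned in sign with library totals (0.04, adjusted p = 0.635, range over its alternatives 0.00261 to 0.635).

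The ratio of GOT2 to GOT1 within a library does not depend on how libraries are scaled. In log2 of counts it was 1.91, 1.97 and 1.81 in control and 0.15, 0.30 and 0.01 in ARD1 libraries. The groups stand far apart, a 3.36-fold lower ratio (exact two-sided permutation p = 0.10, the smallest that 3 against 3 libraries can give; 0.15 after Benjamini-Hochberg adjustment over the 6 ratios computed). Per length of annotated exon, GOT2 exceeded GOT1 by 3.14 to 3.51 times in control libraries and stood at 0.900 to 1.10 times GOT1 in ARD1 libraries. Exons of GOT1-DT, a divergent non-coding RNA, lie opposite 19.3% of GOT1 exon bases. GOT1-DT, looked at after its values were seen, had 33, 29 and 33 counts in control and 107, 100 and 101 counts in ARD1 libraries (log2 fold change 1.49, SE 0.196), all ARD1 libraries being higher. Counts of the pair cannot be told apart without strand, but GOT1-DT holds far fewer than the 573 to 2246 counts of GOT1. Its own 300-base window shares 189 bases with that of GOT1, the response-element letters included.

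GPT2 (ENSG00000166123; chromosome 16, 46884378 to 46931297, plus strand), the mitochondrial alanine aminotransferase, which makes α-ketoglutarate and alanine from glutamate and pyruvate, rose slightly. It was at 80.2, 73.3 and 75.3 CPM in control and 92.7, 80.6 and 92.4 CPM in ARD1 libraries, where ARD1 replicate 2 was barely above the highest control. The means were 76.3 ± 3.51 and 88.6 ± 6.88 CPM (SD, n = 3; log2 fold change 0.22, SE 0.0786, 95% interval 0.05 to 0.38, adjusted p = 0.0251). The call was lost with DESeq2 (adjusted p = 0.0509) and without control replicate 2 (0.165), control replicate 3 (0.120), ARD1 replicate 1 (0.119) or ARD1 replicate 3 (0.115; range of adjusted p over its alternatives 2.20e-05 to 0.165). The cytosolic enzyme GPT was rare, at 1.82 ± 0.113 and 0.980 ± 0.0515 CPM, and fell (-0.89, SE 0.257, adjusted p = 0.00666), although after removal of GC and length trends it came to -0.41 (adjusted p = 0.188, and 0.00475 to 0.225 over all its alternatives). The log2 ratio of GPT2 to GPT was 5.54, 5.23 and 5.39 in control and 6.65, 6.32 and 6.52 in ARD1 libraries, all higher in the ARD1 group (exact permutation p = 0.10, adjusted 0.15). That of GPT2 to GLUD1, 2 mitochondrial routes from glutamate to α-ketoglutarate, was -1.48, -1.58 and -1.47 in control and -0.97, -1.23 and -0.99 in ARD1 libraries, again without overlap (exact permutation p = 0.10, adjusted 0.15).

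**Figure D2:**
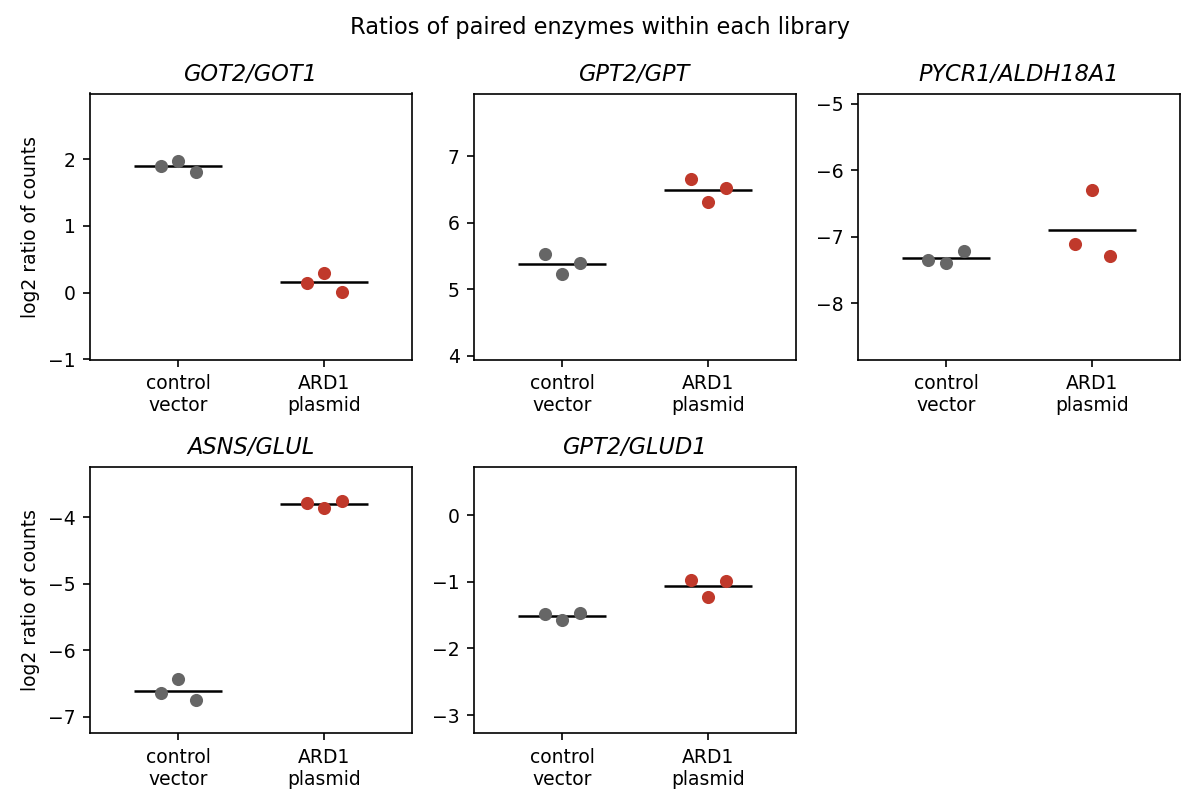
Log2 ratio of the counts of 2 enzymes within each library (y axis, each panel spanning 4 log2 units) for 5 pairs; points are libraries and lines group means. The ratios GOT2/GOT1, GPT2/GPT, ASNS/GLUL and GPT2/GLUD1 do not overlap between the control vector and ARD1 plasmid groups, and PYCR1/ALDH18A1 does.

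ASNS (ENSG00000070669; chromosome 7, 97852118 to 97872542, minus strand), asparagine synthetase, which moves the amide of glutamine onto aspartate, rose most among the 8 tested enzymes. It had 85, 81 and 64 counts in control and 344, 374 and 349 counts in ARD1 libraries, or 3.87, 3.85 and 2.87 CPM against 14.4, 14.0 and 14.1 CPM. The ARD1 libraries were nearly equal to each other and all far above the controls, of which control replicate 3 was lowest. The means were 3.53 ± 0.568 and 14.2 ± 0.206 CPM (SD, n = 3), 4.01-fold higher (log2 fold change 2.0, SE 0.138, 95% interval 1.71 to 2.30, adjusted p = 6.14e-09), and ASNS passed in each of 17 refits, between 1.84 and 2.27. Despite the rise its level stayed low per length, as described below. Exons of a longer transcript on the same strand (ENSG00000284707) cover 44.6% of ASNS exon bases, so counts may be shared. That gene did not pass at 7.42 ± 0.683 and 8.61 ± 2.07 CPM (0.21, adjusted p = 0.267).

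The enzymes that make the amides of asparagine and glutamine thus moved in opposite directions. Within a library the log2 ratio of ASNS to GLUL was -6.65, -6.43 and -6.74 in control and -3.78, -3.86 and -3.75 in ARD1 libraries. All 3 ARD1 libraries were higher, by 7.01-fold on average (exact two-sided permutation p = 0.10, the smallest possible; adjusted 0.15). ASPG, an asparaginase, had 0, 0 and 2 counts in control and 0 counts in each ARD1 library and was not tested. ASRGL1, another asparaginase, was detected at 7.97 ± 0.919 CPM in control and 9.35 ± 1.28 CPM in ARD1 libraries and did not pass (0.23, adjusted p = 0.165).

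ALDH18A1 (ENSG00000059573; chromosome 10, 95605929 to 95656706, minus strand) encodes the mitochondrial P5C synthase, which commits glutamate to proline and ornithine. It was at 96.5, 80.0 and 79.8 CPM in control and 69.3, 76.9 and 75.8 CPM in ARD1 libraries. The groups do not overlap, but control replicates 2 and 3 lie within a few CPM of ARD1 replicates 2 and 3. The means were 85.5 ± 9.58 and 74.0 ± 4.15 CPM (SD, n = 3; log2 fold change -0.21, SE 0.0865, 95% interval -0.39 to -0.02, adjusted p = 0.0465). The call was lost with upper-quartile scaling (-0.16, adjusted p = 0.0992) and without ARD1 replicate 1, 2 or 3 (adjusted p = 0.207, 0.0712 and 0.0891). Without control replicate 1 the difference shrank to -0.12 (adjusted p = 0.0476), and with library totals the sign turned (0.06, adjusted p = 0.496, range over its alternatives 0.0166 to 0.496).

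PYCR1 (ENSG00000183010; chromosome 17, 81932384 to 81942412, minus strand), a mitochondrial P5C reductase that completes proline, was barely detected. It had 13, 10 and 12 counts in control and 12, 26 and 12 counts in ARD1 libraries, or 0.591, 0.475 and 0.539 CPM against 0.502, 0.975 and 0.483 CPM. ARD1 replicate 2 alone was high, and the other 2 ARD1 libraries fall within the control range. The log2 fold change of 0.30 (SE 0.40, 95% interval -0.56 to 1.15, adjusted p = 0.533) rested on ARD1 replicate 2, without which it was -0.12 (adjusted p = 0.834, and 0.144 to 0.834 over all its alternatives). A 2-fold higher level lies within the interval. Exons of MYADML2 on the same strand cover 14.1% of PYCR1 exon bases. Its ratio to ALDH18A1 did not separate the groups (exact permutation p = 0.2, adjusted 0.24).

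**Figure D3:**
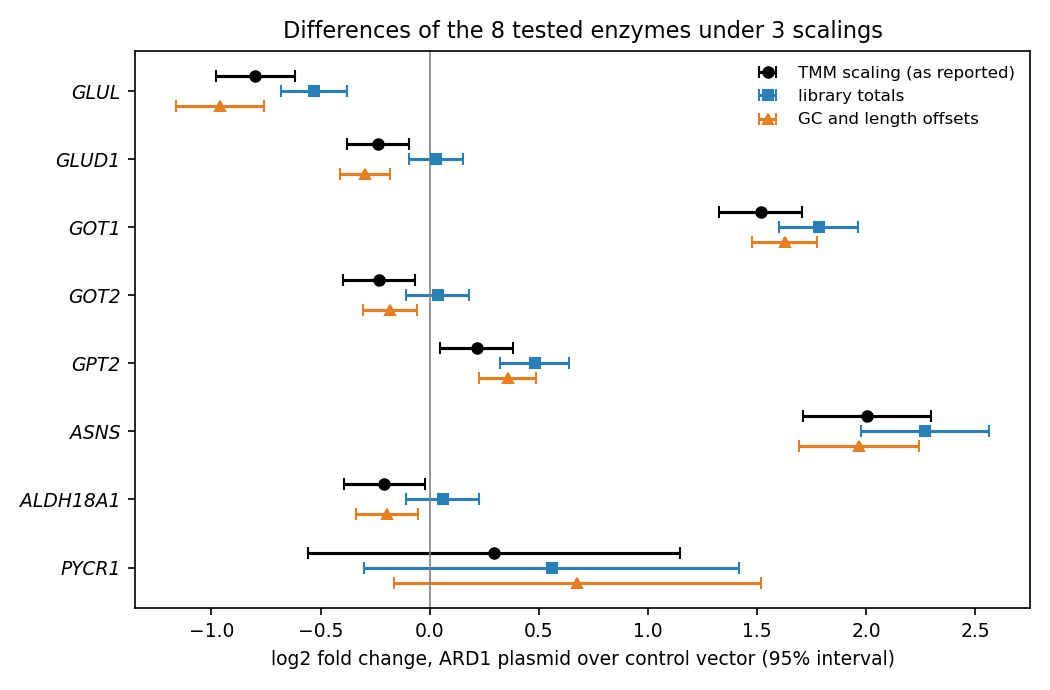
Log2 fold change (x axis, ARD1 plasmid over control vector, with 95% interval) of the 8 tested enzymes (y axis) with TMM scaling, with library totals alone, and with GC and length trends removed. ASNS (2.0), GOT1 (1.52) and GLUL (-0.80) keep clear of 0 in all 3, while GLUD1, GOT2 and ALDH18A1 sit at -0.24, -0.23 and -0.21 with TMM and at 0.03, 0.04 and 0.06 with library totals.

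Levels were compared between the enzymes per kb of annotated exon. In control libraries the order was GLUD1 (61.8 ± 2.11 CPM per kb), GLUL (37.9 ± 4.56), GOT2 (29.6 ± 2.47), ALDH18A1 (22.7 ± 2.54), GPT2 (12 ± 0.552), GOT1 (8.89 ± 0.799), ASNS (0.792 ± 0.128), PYCR1 (0.185 ± 0.0201) and GLS2 (0.0295 ± 0.00566), and no neighbours in this order overlapped in range. In ARD1 libraries GLUD1 still led (52.4 ± 1.13 CPM per kb), followed by GOT1 (25.4 ± 1.89) and GOT2 (25.2 ± 0.946), whose ranges overlapped, then GLUL (21.8 ± 0.805), ALDH18A1 (19.7 ± 1.10), GPT2 (13.9 ± 1.08), ASNS (3.18 ± 0.0462), PYCR1 (0.226 ± 0.0965) and GLS2 (0.0197 ± 0.0179). GOT1 thus moved from place 6 to place 2, while GLUL moved from 2 to 4. With the length of the longest transcript in place of all exon bases, chosen after seeing the data, the control order was the same, but in ARD1 libraries GOT1 came to place 4, behind GOT2 and GLUL. The highest level and the 3 lowest belonged to the same genes in both groups. Those 3 lowest share exon bases with other genes on the same strand, 44.6% for ASNS, 14.1% for PYCR1 and 5.65% for GLS2. How reads from shared bases were counted is not known, so the levels per kb of these 3 are uncertain.

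The other genes of these pathways were read from 5 lists, of 66 genes together. Of the 59 tested, 13 rose, 26 fell and 20 did not pass, 66.1% past the threshold against the background of 64.7%, with a median log2 fold change of -0.17. With library totals each list had as many or more higher genes, and the split is given beside each count below. OAT is in 2 of these lists.

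Of 16 further enzymes of glutamine and glutamate, 15 were tested, with 4 higher and 7 lower (also 4 and 7 with library totals, and 2 and 8 with GC and length trends removed; median -0.57). PSAT1, which uses glutamate as amino donor in serine synthesis, rose from 219.7 ± 8.23 to 430.6 ± 21.3 CPM (0.97, SE 0.0713). OPLAH, which returns 5-oxoproline to glutamate, fell from 81.5 ± 1.57 to 20.8 ± 1.05 CPM (-1.97, SE 0.0793). BCAT2, the mitochondrial branched-chain aminotransferase, fell by 0.90 on the log2 scale, and TAT, tyrosine aminotransferase, fell by 1.82.

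Of 10 users of the glutamine amide, 9 were tested, with 1 higher and 4 lower (5 and 2 with library totals; median -0.01). The 1 that rose, GFPT1, opens the hexosamine pathway and went from 252 ± 4.86 to 547 ± 26.7 CPM (1.12, SE 0.0704). NADSYN1, which makes NAD, and PFAS, of purine synthesis, fell by 0.67 and 0.63 on the log2 scale. GMPS was at -0.26, and at 0.01 with library totals. CAD was at -0.22 (adjusted p = 0.0398) with overlapping groups. Its call was lost with GC and length trends removed (-0.06), with upper-quartile scaling and without any 1 of the ARD1 libraries, its sign turned with library totals (0.04), and it was -0.12 without control replicate 1 and -0.34 without control replicate 3 (adjusted p 0.00475 to 0.632 over all its alternatives). Of 12 genes of asparagine and aspartate use, 11 were tested, with 2 higher and 6 lower (4 and 3 with library totals; median -0.22). Without ARD1 replicate 1 or ARD1 replicate 2 the count past the threshold was 5 instead of 8, 1 higher and 4 lower each time. ADSS1, which adds aspartate to IMP, fell from 52.4 ± 3.09 to 12.5 ± 1.40 CPM (-2.07, SE 0.0998), and ASL, argininosuccinate lyase, fell from 31.1 ± 3.56 to 13.6 ± 0.647 CPM (-1.19, SE 0.104).

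Of 12 further genes of proline, ornithine and arginine, 11 were tested, with 1 higher and 6 lower (4 and 6 with library totals, and 3 and 6 with GC and length trends removed; median -0.65). ODC1, ornithine decarboxylase and the entry to polyamines, was the one that rose, from 24.9, 22.3 and 20.5 CPM in control to 86.9, 91.0 and 89.9 CPM in ARD1 libraries (1.98, SE 0.0860). PRODH, proline dehydrogenase, had 46, 52 and 58 counts in control and 0, 3 and 2 counts in ARD1 libraries, a fall in all 3 (-5.06, SE 0.472). OAT, which links ornithine to P5C, fell from 48.2 ± 5.86 to 17.3 ± 1.07 CPM (-1.48, SE 0.103). PYCR3, the cytosolic P5C reductase, fell from 29.7 ± 3.02 to 12.1 ± 1.05 CPM (-1.30, SE 0.107). ALDH4A1, which oxidises P5C to glutamate, did not pass (0.08, adjusted p = 0.600), and the value was -0.05 without control replicate 2. ALDH4A1 passed as higher without control replicate 1 (0.23), with library totals (0.35) and with GC and length trends removed (0.40, and 0.41 with the replicate block).

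Of 17 carriers of these amino acids, 14 were tested, with 5 higher and 4 lower (7 and 3 with library totals; median 0.01). SLC38A5, an exporter and importer of glutamine, asparagine and serine, fell from 60.4, 49.1 and 50.02 CPM to 2.89, 3.90 and 4.59 CPM (-3.80, SE 0.142), with no overlap. SLC36A1, a lysosomal and plasma membrane carrier of proline and other small amino acids, rose from 14.0 ± 1.67 to 34.1 ± 1.52 CPM (1.29, SE 0.102). SLC7A5, the large neutral amino acid exchanger, rose by 0.83 and SLC1A4 by 0.67 on the log2 scale, and SLC25A11, the mitochondrial malate carrier of the shuttle that GOT1 and GOT2 serve, fell by 0.62.

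Of 15 regulators known for these genes, all were tested, with 6 higher and 4 lower (10 and 1 with library totals, 9 and 2 with GC and length trends removed; median 0.08). That is 66.7% past the threshold, near the 64.7% of all tested genes, so nothing particular to the regulators is read from the count. ATF4 RNA did not pass at 397 ± 5.09 and 432 ± 14.4 CPM (0.12, SE 0.0676, adjusted p = 0.126). The ATF4 libraries of the groups did not overlap, and it passed as higher with library totals (0.39), with GC and length trends removed (0.35), with upper-quartile scaling (0.16) and without control replicate 1 (0.10; range of adjusted p over its alternatives 1.47e-05 to 0.346). ATF4 is known to be set largely by translation, which RNA levels do not measure. Its partners of the C/EBP family rose, CEBPB from 125 ± 14.5 to 228 ± 7.73 CPM (0.86, SE 0.0831) and CEBPG from 75.9 ± 9.33 to 137 ± 4.52 CPM (0.85, SE 0.0872). ATF5, a relative of ATF4, rose from 109 ± 9.20 to 271 ± 6.03 CPM (1.31, SE 0.0760). DDIT3 and ATF3 rose by 2.49 and 2.63. No relation between these regulators and the enzymes was tested.

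**Figure D4:**
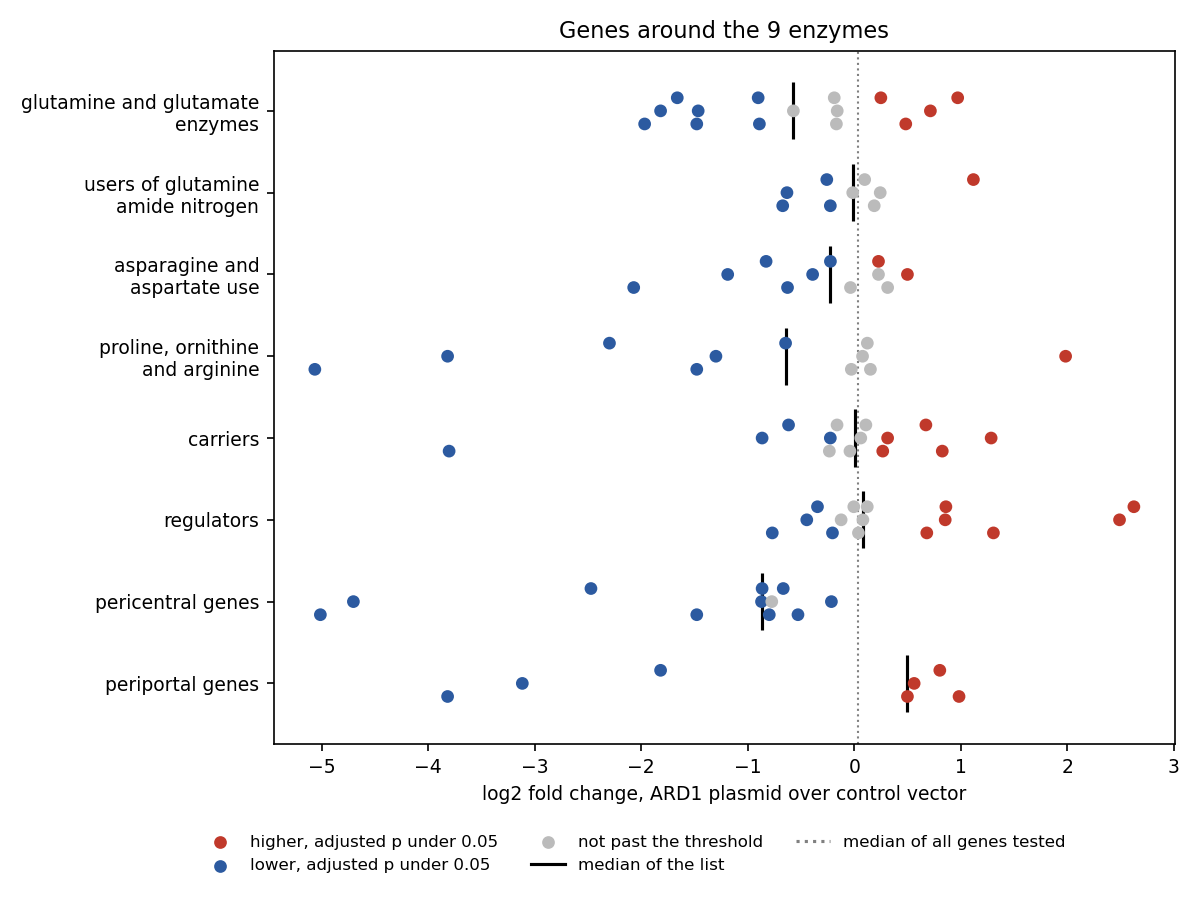
Log2 fold change (x axis, ARD1 plasmid over control vector) of each tested gene in 8 lists (y axis); colour marks genes past the threshold in either direction, black lines the list medians and the dotted line the median of all genes tested (0.03). Pericentral genes have none in the higher direction and a median of -0.87, and the other lists have genes on both sides.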

How the data were processed

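Total RNA was extracted with Trizol and ribosomal RNA removed before a directional library kit, per the labels' protocols. Cutadapt 4.6, STAR 2.7.11b and GRCh38 are named in the submitters' processing notes. Which program counted the reads, with which strand setting and annotation, is not given in the sources used here. Raw read counts were deposited by the authors per Ensembl gene, with at least 2 counts over the 6 libraries for each of 25071 genes. Symbols matched for 25052 identifiers. GENCODE 29 gave coordinates, exon length and GC content.

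Groups came from the sample titles. The filterByExpr function kept 15816 genes and removed 9255. Groups were compared by edgeR's quasi-likelihood test with TMM and robust estimation (version 4.0.16 in R 4.3.3) over 6 libraries, with Benjamini-Hochberg adjusted p under 0.05 over all genes tested. CPM values are TMM-scaled, and intervals are 95%. Standard errors and intervals come from that fit and include the spread between libraries. The floor of 3 counts covers counting error only, since counts without molecular identifiers are not independent molecules. Ratios within a library were compared by an exact permutation test (scipy 1.17.1). Of 8 pairs, 2 with GLS2 were not given, because GLS2 had 3 counts or fewer in a library.

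The 9 enzymes, the lists of related genes, the cell markers and the motifs were chosen with earlier results of these data known. Named genes were the 9 enzymes, the changed genes with the 5 smallest p-values of each pathway, regulator and zonation list, the paralogues and partners GLUD2, GPT, PYCR3, PRODH, ALDH4A1, OAT and ASPG, ATF4, DDIT3, CEBPB and CTNNB1, and NAA10. Left out of the text are 2 genes named by this rule and 1 of the 6 ratios computed, which are not reported here, and some others for brevity. ENSG00000284707, SHLD2, SPRYD4, MYADML2, GLUD1P3, GOT1-DT, CYP2E1 and the cell markers fall outside the rule. So do ZNRF3, RNF43, TBX3, CYP1A2, RHBG, HAL, SDS, CPS1, HSD17B13 and ASRGL1.

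Alternatives were RLE and upper-quartile scaling, library totals, DESeq2 1.42.0, limma-voom (limma 3.58.1), library sizes that leave out NAA10, no filter, a filter of 1 CPM in 3 libraries, loess offsets for GC content and length, a replicate block with and without those offsets, a minimum absolute log2 fold change of 1, and each library left out. The fitting step was tested on simulated data. No shared effect of replicate number was seen: the deviations of same-numbered libraries correlated at 0.02, -0.04 and 0.03. The labels do not say whether same-numbered libraries were prepared together, and these correlations cannot decide it.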

Additional observations from a re-analysis of the deposited data

How the results depend on the processing

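Of 10229 genes past the threshold, 3407 also differed by 1 or more on the log2 scale, and leaving out 1 library gave 9296 to 10980. The count of enzymes past the threshold, 7 of 8, was 4 with library totals, 2 with a minimum change of 1, and 4 to 7 with 1 library left out, the 4 being without ARD1 replicate 3. ASNS and GOT1 passed each time, and GLUL each time but with the minimum change of 1. Asparagine and aspartate genes past the threshold ranged from 5 to 9 of 11 with 1 library left out. Library totals turned the sign of GLUD1 (0.0289), GOT2 (0.0363), ALDH18A1 (0.0603), GMPS (0.00681), CAD (0.0439) and GLUD2 (0.0760). With 1 library left out, PYCR1 ran from -0.12 to 0.48, and ALDH4A1 from -0.0526 to 0.228. GC and length offsets gave -0.0697 for CTNNB1 (-0.0703 with the replicate block) and ratio differences of 0.77 for GPT2/GPT (1.11 without), 2.93 for ASNS/GLUL (2.81) and 0.65 for GPT2/GLUD1 (0.45). The causes were not tested. With the replicate block 10361 genes passed (5240 higher, 5121 lower), 10563 with the offsets too, and the same 3 enzymes higher and 4 lower, although no shared effect of replicate number was seen. Over 50 named genes, 807 of 847 values kept direction and side of the threshold, 19 lost it, 10 gained it and 11 changed sign. Depth limits GLS2 and PYCR1, where a few counts set the level.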
